A study of Mus musculus with 4 samples.

Results

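The NF-kB subunits and their inhibitors are 10 genes of the 24907 in the count table: the subunit genes Nfkb1, Nfkb2, Rela, Relb and Rel, and the inhibitor genes Nfkbia, Nfkbib, Nfkbie, Nfkbiz and Tnfaip3. Each member was taken by its symbol, and each had 1 row. The libraries came from ASZ001, a cell line from a mouse basal cell carcinoma (BCC), a skin tumour driven by Hedgehog signalling. In 2 libraries (genotype c-FOS) the cells carried a doxycycline-inducible vector encoding the transcription factor c-FOS. In the other 2 (genotype control) they carried the same kind of vector without an insert. Both kinds of cell were given doxycycline, with dose and duration not given in the sources used here. Libraries of c-FOS vector cells kept off doxycycline were not analysed here, so effects of c-FOS and of any other difference between the transfected lines cannot be told apart. Nor do the labels say whether a kind of cell is 1 clone, or whether the libraries of a group came from separate cultures. The p-values therefore measure the spread between these libraries, which may be technical.

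NF-kB is a family of transcription factors that bind DNA as dimers and share a Rel homology domain. Rela, Relb and Rel (c-Rel) carry a transactivation domain, whereas Nfkb1 and Nfkb2 encode precursors (p105 and p100) that are processed to the DNA-binding p50 and p52. In resting cells the IkB proteins, encoded by Nfkbia, Nfkbib and Nfkbie, hold the dimers in the cytoplasm until IkB kinase marks the inhibitor for degradation. In the alternative branch, the kinase encoded by Map3k14 leads to processing of p100 and to dimers of p52 with RelB. In the epidermis the pathway is known for restraining keratinocyte growth and for controlling inflammatory genes. AP-1, the dimer that c-FOS forms with JUN proteins, acts on many of the same promoters.

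Total counts were 29200592 and 32465409 in the c-FOS libraries and 28405433 and 29822437.5 in the control libraries. Fos had 296.8 and 313.4 CPM (counts-per-million, scaled by TMM factors) in the c-FOS libraries and 0.404 and 0.351 CPM in the control libraries, so Fos was high only in the libraries labelled c-FOS. The 7 markers of basal keratinocytes and BCC summed to 11150 and 11690 CPM in the c-FOS libraries and to 24240 CPM in each control library, and all 7 were lower with c-FOS. Lymphoid and myeloid cells express many of these NF-kB genes. Among 12 macrophage and leukocyte markers, those at 0 in every library included Cd3e, Ms4a1, Cd79a and Itgax, and Ptprc, which encodes the pan-leukocyte antigen CD45, averaged 0.0862 CPM with c-FOS and 0.0168 CPM in control. The list summed to 41.6 and 45.0 CPM in the c-FOS libraries, mostly Csf1r, Cd14 and Cd68. In the control libraries it summed to 18.9 and 17.0 CPM, mostly Cd14 and Cd68. Csf1r had 18.4 and 18.5 CPM with c-FOS and 0.404 and 0.224 CPM in control (log2 fold change 5.87, edgeR adjusted p = 2.05e-12). Cd14 and Cd68 were higher by log2 fold changes of 0.68 and 0.37. The macrophage markers Adgre1, Itgam and Lyz2 were at 0.144 CPM or less in every library. In bulk RNA, a change in the number of cells with the transcripts that rose and a change in RNA per cell cannot be told apart. The 8 fibroblast markers summed to 17.7 and 19.2 CPM with c-FOS and to 5.45 and 5.68 CPM in control, mostly Pdgfra, with Thy1 at 0. Of the 4 fibroblast markers tested, 3 passed as higher: Pdgfra, Col1a2 and Pdgfrb. Col1a2 had 2.98 and 3.91 CPM with c-FOS and 0.471 and 0.607 CPM in control. Pdgfrb had 2.73 and 2.65 CPM with c-FOS and 0 in both control libraries. Col3a1 and Lum were at 0.0336 CPM or less in every library, and Col1a1 did not pass. Dcn, too low to be tested, went the other way, at 0.144 and 0.129 CPM with c-FOS and 0.303 and 0.607 CPM in control. The 5 endothelial markers summed to 216.1 and 211.8 CPM with c-FOS and to 112.9 and 113.0 CPM in control, mostly Flt1 and Pecam1, with Kdr at 0. The part that these markers play in the member values was not tested.

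The RefSeq promoter table (build GRCm38.p6, 250 bases before to 50 after each start) held 10 windows for 7 members: Nfkb2, Rela, Rel, Nfkbia, Nfkbib, Nfkbie and Tnfaip3. The counts were made on mm9, so these sequences describe the genes and not the reads. Both strands were searched for the AP-1 site TGACTCA and for the kB decamer consensus. The kB decamer stood in 8.46% and the AP-1 site in 5.20% of all 32851 windows of 300 bases in the table. Among the members, 5 of 7 held a kB decamer (Nfkb2, Rel, Nfkbia, Nfkbie and Tnfaip3) and 2 of 7 an AP-1 site (Nfkbie and Tnfaip3). Counted by window, as the shares of the table are, 7 of 10 held a kB decamer and 2 of 10 an AP-1 site. The windows of Rela and Nfkbib held neither. The 160 bases before a start are shown for the 5 members with a match, because these genes differ in how they changed with c-FOS. Capitals mark matches to either motif.
Nfkb2, chr19:46304577-46304736, plus strand: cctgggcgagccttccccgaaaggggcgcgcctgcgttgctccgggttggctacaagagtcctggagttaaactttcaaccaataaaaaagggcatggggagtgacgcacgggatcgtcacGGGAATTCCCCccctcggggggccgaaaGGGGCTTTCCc
Rel, chr11:23770970-23771129, minus strand: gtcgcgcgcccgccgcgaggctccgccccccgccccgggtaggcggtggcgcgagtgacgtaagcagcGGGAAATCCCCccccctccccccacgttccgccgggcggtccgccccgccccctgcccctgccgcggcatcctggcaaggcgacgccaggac
Nfkbia, chr12:55492648-55492807, minus strand: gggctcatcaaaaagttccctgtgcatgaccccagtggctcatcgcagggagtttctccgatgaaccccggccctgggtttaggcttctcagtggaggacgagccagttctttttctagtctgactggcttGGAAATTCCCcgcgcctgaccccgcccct
Nfkbie, chr17:45555540-45555699, plus strand: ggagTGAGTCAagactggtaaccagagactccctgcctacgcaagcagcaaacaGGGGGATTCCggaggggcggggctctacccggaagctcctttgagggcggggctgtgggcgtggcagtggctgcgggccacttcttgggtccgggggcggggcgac
Tnfaip3, chr10:19015411-19015570, minus strand: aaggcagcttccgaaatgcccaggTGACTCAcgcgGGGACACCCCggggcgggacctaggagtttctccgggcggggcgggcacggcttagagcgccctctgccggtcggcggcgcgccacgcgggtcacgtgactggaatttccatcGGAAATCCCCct
In Nfkb2 the capitals, read from the start, lie 39 to 29 bases before it (overlapping kB matches on the palindromic core) and 11 to 2 bases before it. The other windows of Nfkb2 start further into the gene and share the decamer GGGACTTTCC. In Tnfaip3 the AP-1 site lies 136 to 130 bases before the start, near a kB match at 125 to 116 bases, and a further kB match lies at 12 to 3 bases. Nfkbie has its AP-1 site at 156 to 150 and its kB match at 106 to 97 bases, Nfkbia a kB match at 29 to 20 bases, and Rel overlapping kB matches at 92 to 82 bases. A match is a stretch of letters and not a measured binding site.

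With c-FOS the subunit transcripts changed in opposite directions, while most inhibitor transcripts did not pass the test. Nfkb2, Relb and Rela rose, Nfkb1 and Rel fell, and of the inhibitors Tnfaip3 rose. All 10 members were expressed highly enough to be tested. By the quasi-likelihood test of edgeR, with p adjusted after Benjamini and Hochberg over all 12791 tested genes, 6 of 10 members passed an adjusted p of 0.05, where 67.1% of all tested genes passed. Of the 10, 4 were higher, where 33.8% of all genes were, and 2 were lower, where 33.3% were. The groups did not overlap for 9 of 10 members, against 83.6% of all genes. The count of changed members is thus near the background of this comparison, and no member changed by 2-fold or more, which 15.4% of all genes did while passing the test. The median log2 fold change was 0.17 over the members and -0.01 over all tested genes, and the median size of the change, whichever its direction, was 0.31 for the members and 0.32 for all genes.

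**Figure D1:**
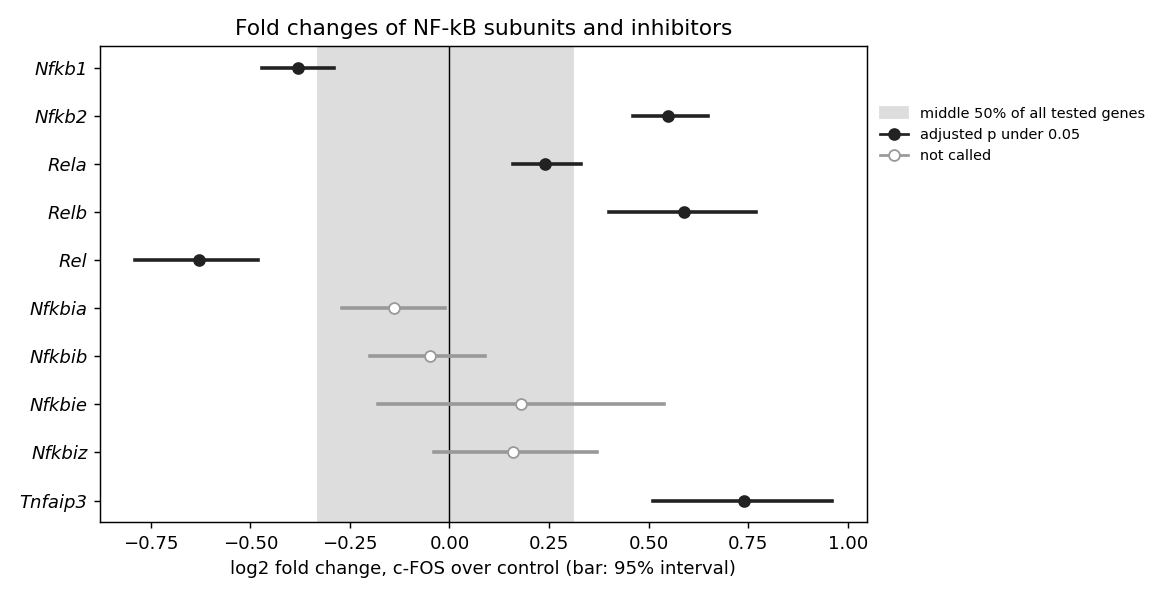
Log2 fold change (c-FOS over control, x axis) of each member with its 95% interval from edgeR's quasi-likelihood fit, n = 2 libraries per group; filled points passed an adjusted p of 0.05, and the grey band spans the middle 50% of all tested genes (-0.33 to 0.31). Rel and Nfkb1 lie to the left of the band, Nfkb2, Relb and Tnfaip3 to the right, and 4 inhibitor genes do not pass.

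Nfkb1 and Nfkb2, the precursor genes, moved apart. Nfkb2 had 126.7 and 127.1 CPM in the c-FOS libraries and 89.8 and 83.2 CPM in the control libraries. Both c-FOS libraries stood above both control libraries, a 1.47-fold rise (log2 fold change 0.55 ± 0.04, SE; edgeR adjusted p = 7.53e-08). Nfkb1 had 78.7 and 76.7 CPM with c-FOS and 102.3 and 99.9 CPM in control. It fell by 0.38 ± 0.04 (SE) on the log2 scale, with no overlap between the groups (edgeR adjusted p = 2.04e-06). Per kilobase of gene model, which allows genes to be compared, the level of Nfkb2 was 2.07 and 2.13 times that of Nfkb1 in the c-FOS libraries and 1.13 and 1.07 times in the control libraries. Exons of Nfkb2 overlap, on the opposite strand, those of Psd (6.52% of its exon bases) and of a long non-coding RNA (11.6%) in GENCODE M21. Whether counting used strand is not stated in the labels or files, so such reads cannot be told apart. Psd had 2.05 and 1.36 CPM with c-FOS and 2.52 and 1.95 CPM in control, far below Nfkb2. The level of the long non-coding RNA, which has the larger overlap, is not given here.

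Relb and Rel also moved apart. Relb, the partner of p52 in the alternative branch, had 18.5 and 17.6 CPM in the c-FOS libraries and 12.6 and 11.4 CPM in the control libraries. It rose 1.5-fold (log2 fold change 0.59 ± 0.09, SE; edgeR adjusted p = 3.7e-05), and the groups did not overlap. Rel, the c-Rel gene, had 15.7 and 16.0 CPM with c-FOS and 24.9 and 24.4 CPM in control. It fell by 0.63 ± 0.07 (SE) on the log2 scale, to 0.644 of the control level (edgeR adjusted p = 3.67e-06). Per kilobase, the ratio of Relb to Rel was 1.38 and 1.29 in the c-FOS libraries and 0.595 and 0.550 in the control libraries, so the order of these genes was the reverse in c-FOS cells of that in control cells. Rela, which encodes p65, the main transactivating subunit, had 172.8 and 175.0 CPM with c-FOS and 149.2 and 144.6 CPM in control. Its rise was the smallest of the called members, 1.18-fold (log2 fold change 0.24 ± 0.04, SE; edgeR adjusted p = 6.83e-05), and it was 0.11 when libraries were scaled by their totals (edgeR adjusted p = 0.0229).

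**Figure D2:**
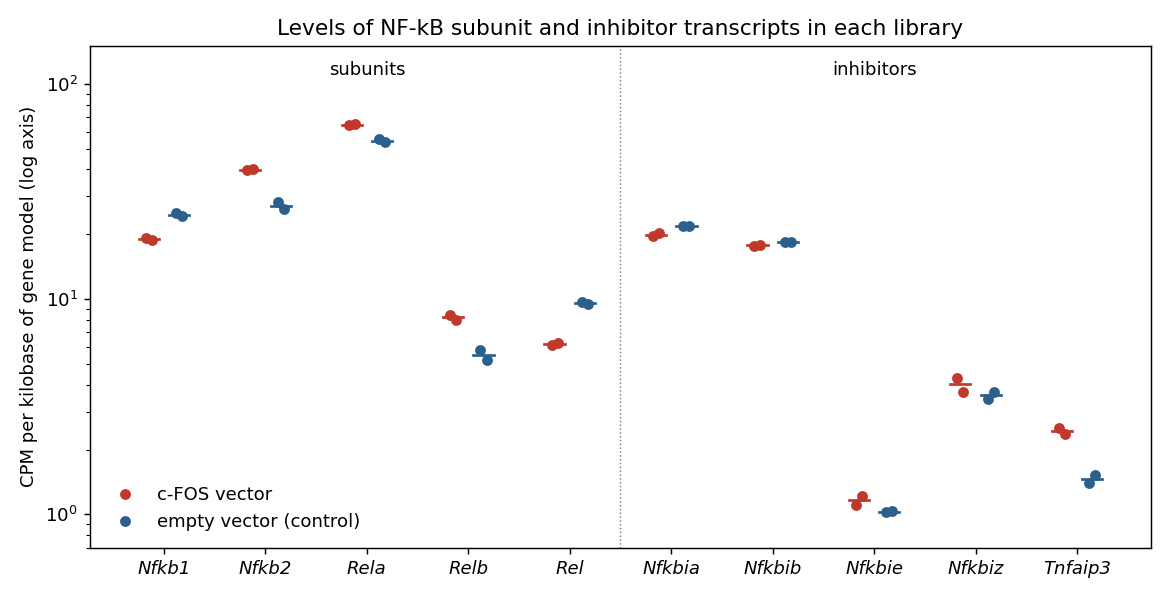
Level of each member in each library (points; y axis, CPM per kilobase of gene model, log axis), c-FOS in red left of control in blue, with lines at the means of n = 2 libraries. Rela and Nfkb2 are the most abundant members in both groups, and Relb and Rel trade places between the groups.

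Per kilobase, Rela was the most abundant member, at 64.5 ± 0.584 CPM per kilobase in c-FOS cells and 54.5 ± 1.21 in control cells (SD, n = 2 per group). Nfkb2 came next, at 39.9 ± 0.0957 with c-FOS and 27.2 ± 1.46 in control. In c-FOS cells there followed Nfkbia (19.9 ± 0.466), Nfkb1 (19.0 ± 0.348), Nfkbib (17.8 ± 0.118), Relb (8.24 ± 0.295), Rel (6.17 ± 0.0839), Nfkbiz (4.01 ± 0.423), Tnfaip3 (2.44 ± 0.125) and Nfkbie (1.17 ± 0.0799). In control cells there followed Nfkb1 (24.7 ± 0.414), Nfkbia (21.9 ± 0.0753), Nfkbib (18.5 ± 0.0776), Rel (9.58 ± 0.151), Relb (5.49 ± 0.391), Nfkbiz (3.57 ± 0.208), Tnfaip3 (1.46 ± 0.0832) and Nfkbie (1.03 ± 0.01). No neighbours in either order had library values that overlapped, although with 2 libraries a group and model lengths taken from the authors' table this order is a description. The exchanged places were those of Nfkb1 with Nfkbia and of Rel with Relb.

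Summed per kilobase, the 5 subunits reached 137.7 and 137.9 CPM per kilobase in the c-FOS libraries and 124.0 and 118.9 in the control libraries. The make-up of this sum also differed between the groups. Nfkb1 and Nfkb2 together took 42.9% and 42.6% of it with c-FOS and 42.9% and 42.5% in control. Within that share, Nfkb2 took 28.9% and 29.0% with c-FOS and 22.8% and 22.0% in control, and Nfkb1 took 14% and 13.6% with c-FOS and 20.2% and 20.5% in control. Relb and Rel together took 10.6% and 10.3% with c-FOS and 12.5% and 12.4% in control. Rela held 46.5% and 47.1% with c-FOS and 44.6% and 45.1% in control. These shares do not depend on the scaling between libraries. They are shares of transcripts, and neither the proteins nor the processing of the precursors was measured.

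**Figure D3:**
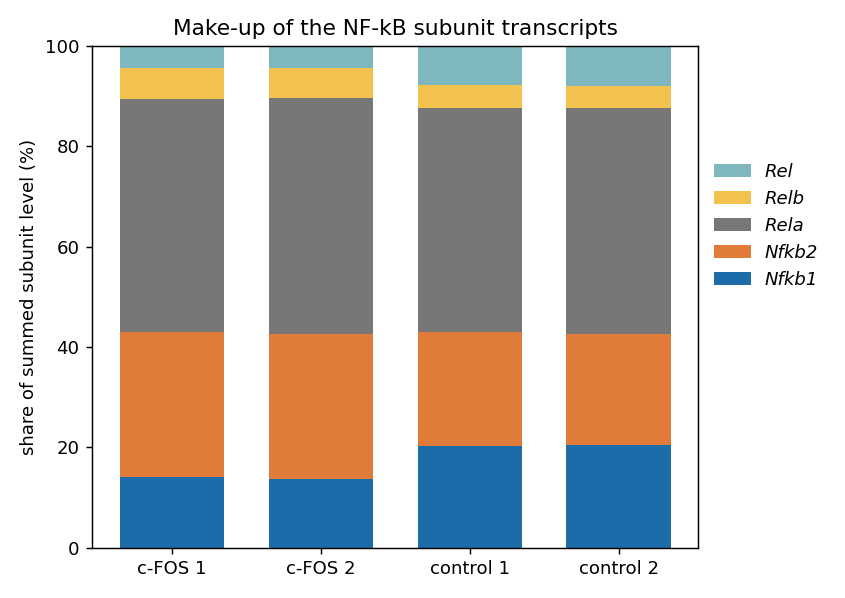
Share of the summed subunit level (y axis, % of CPM per kilobase over the 5 subunit genes) in each library, c-FOS libraries left of control libraries. The Nfkb1 and Nfkb2 segments together reach about the same height in the 4 libraries, with more Nfkb2 and less Nfkb1 in the c-FOS libraries.

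Among the inhibitors, Tnfaip3 was the gene that passed. Its change was the largest of any member with TMM factors, but with library totals (0.60) and upper-quartile factors (0.67) that of Rel was larger (-0.77 and -0.70). Tnfaip3 encodes A20, a ubiquitin-editing enzyme that ends NF-kB signalling from TNF and Toll-like receptors and is itself a target of NF-kB. It had 11.1 and 10.4 CPM in the c-FOS libraries and 6.19 and 6.71 CPM in the control libraries. Both c-FOS values lay above both control values, a 1.66-fold rise (log2 fold change 0.74 ± 0.10, SE; edgeR adjusted p = 2.41e-05). In size this change was larger than that of 77.4% of all tested genes.

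The classical IkB genes did not pass. Nfkbia, which encodes IkB-alpha, the inhibitor resynthesised in response to NF-kB, had 30.7 and 31.8 CPM with c-FOS and 34.4 and 34.3 CPM in control. The libraries did not overlap, but the log2 fold change was -0.14 (95% interval -0.27 to -0.01; edgeR adjusted p = 0.0617). Its call changed under 3 alternatives: with library totals Nfkbia passed as lower (-0.27, edgeR adjusted p = 0.00116), as it did with upper-quartile factors (-0.20, edgeR adjusted p = 0.00995) and with a minimum count of 50 (-0.14, edgeR adjusted p = 0.0484), within a range of 0.00116 to 0.323 over the alternatives run. Nfkbib, which encodes IkB-beta, had 24.1 and 24.3 CPM with c-FOS and 25.2 and 25 CPM in control, with a log2 fold change of -0.05 (95% interval -0.20 to 0.09; edgeR adjusted p = 0.506). It passed as lower with library totals only (-0.19, edgeR adjusted p = 0.0225), within a range of 0.0225 to 0.748. Its exons overlap those of Ccer2 (14.5% of its exon bases) and Sirt2 (1.94%) on the opposite strand. Ccer2 was at or below 0.0336 CPM in every library. Sirt2 had 86.4 and 87.7 CPM with c-FOS and 84.5 and 76.7 CPM in control, above Nfkbib in every library.

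Nfkbie, the lowest member per kilobase in both groups, did not pass, and nor did Nfkbiz. Nfkbie, which encodes IkB-epsilon, had 74.5 and 92 counts in the c-FOS libraries and 74 and 78.5 in the control libraries. That is 2.70 and 2.97 CPM with c-FOS and 2.49 and 2.52 CPM in control, with a log2 fold change of 0.18 with a 95% interval of -0.18 to 0.54, the widest of the members (edgeR adjusted p = 0.36). Nfkbiz encodes the atypical nuclear IkB-zeta, which helps to switch on a subset of NF-kB targets in keratinocytes. It had 16.5 and 14.2 CPM with c-FOS and 13.1 and 14.3 CPM in control and was the member whose groups overlapped (log2 fold change 0.16, 95% interval -0.04 to 0.37; edgeR adjusted p = 0.142). Without control replicate 2 it passed as higher (0.22, edgeR adjusted p = 0.0327), within a range of 0.0327 to 0.821 over the alternatives run. For Nfkbia, Nfkbib, Nfkbie and Nfkbiz, a missed threshold does not show an equal level in both kinds of cell, and the intervals give the range of changes the data allow.

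Summed per kilobase, the 5 inhibitors had 45.2 and 45.4 CPM per kilobase with c-FOS and 46.3 and 46.5 in control. The subunit sum was 3.05 and 3.04 times the inhibitor sum in the c-FOS libraries and 2.68 and 2.56 times in the control libraries. These sums follow the grouping of the genes and not what the proteins do. Nfkbiz counts as an inhibitor though it helps to switch on targets, and the precursor genes count as subunits whether or not their products are processed. Of the precursor genes, Nfkb2 averaged 39.9 CPM per kilobase with c-FOS and 27.2 in control, and Nfkb1 averaged 19.0 with c-FOS and 24.7 in control. The ratio of Rela to Nfkbia, a subunit and its chief inhibitor, was 3.28 and 3.21 with c-FOS and 2.52 and 2.46 in control, per kilobase. The c-FOS libraries were above the control libraries in both ratios, whose values are the same under any scaling between libraries. With 2 against 2 libraries an exact permutation test cannot reach 0.05, so these ratios are given without a p.

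**Figure D4:**
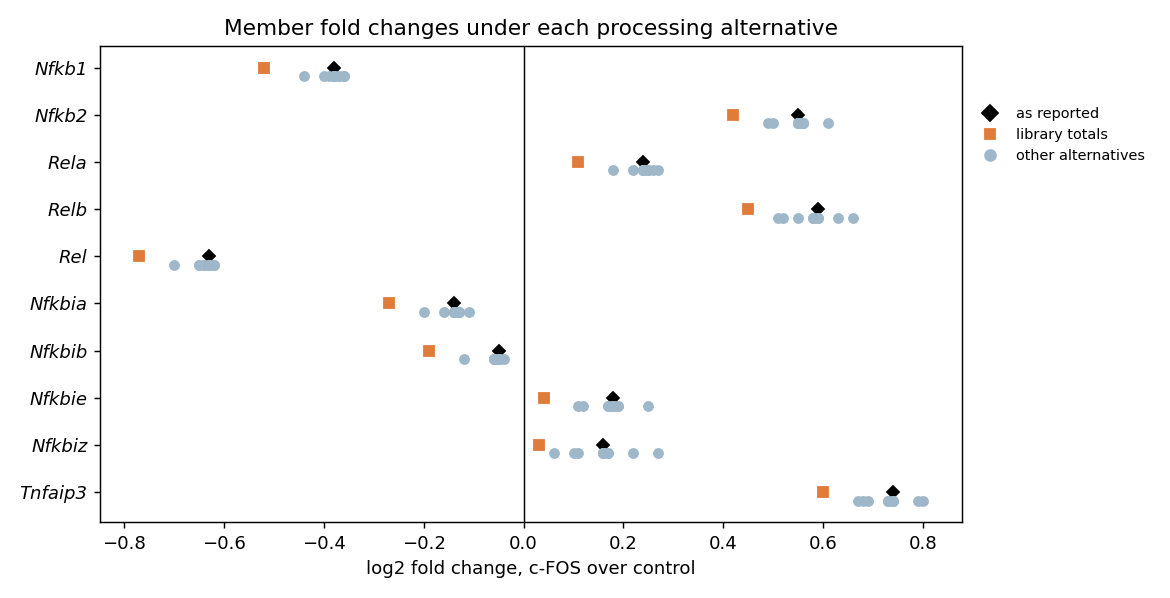
Log2 fold change (c-FOS over control, x axis) of each member as reported (diamonds), with library totals (squares) and under the other 11 alternatives (circles). No member changes sign, and library totals place every member further to the left.

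Motif matches stood in windows of members that rose, fell or did not pass. Of the 5 members with a kB match, Nfkb2 and Tnfaip3 rose, Rel fell, and Nfkbia and Nfkbie did not pass. Of the 2 with an AP-1 match, Tnfaip3 rose and Nfkbie did not pass. Rela rose with no match in its window.

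Of 30 listed kinases and adaptors of the NF-kB pathway, 29 were tested, of which 12 rose, 3 fell and 14 did not pass. Over all tested genes 67.1% passed, 33.8% as higher and 33.3% as lower. The list is not sorted by whether a gene promotes or restrains signalling, so these counts give no direction for the pathway. The median log2 fold change was 0.16, against -0.01 over all tested genes. With library totals 9 were higher and 7 lower. The 3 genes of the IkB kinase complex rose by small amounts: Chuk by a log2 fold change of 0.33, Ikbkg by 0.30 and Ikbkb by 0.19. Ikbkb lost its call with library totals (0.05, edgeR adjusted p = 0.299), within a range of 1.35e-05 to 0.299 over the alternatives run. The genes of this complex, Traf1 and the cytokine and ligand genes given below by their counts were singled out after their values were seen. Card10, which encodes the scaffold CARMA3, had 134.1 and 140.7 CPM in the c-FOS libraries and 87.7 and 85.5 CPM in the control libraries, a log2 fold change of 0.67 ± 0.04 (SE). Map3k14, which encodes NIK, the kinase of the alternative branch, had 12.5 CPM in each c-FOS library and 8.71 and 9.13 CPM in the control libraries (0.49 ± 0.09, SE). Ikbke (0.86), an IKK-related kinase gene, and Ripk1 (0.49), the kinase gene of the TNF receptor complex, were also higher on the log2 scale, and Fadd, a death receptor adaptor gene, fell by 0.58. Traf1, an adaptor gene and NF-kB target, had 27.5 and 22 counts with c-FOS and 0 in both control libraries, at least 17.3-fold higher if the control group is set to 3 counts in all. That bound covers counting error only. It lies above the medians of the lists that hold Traf1, so using it could not change those medians. Across the named kinases and adaptors the edgeR adjusted p lay between 5.62e-09 for Card10 and 0.00105 for Ikbkb.

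Among 18 other inhibitors and feedback genes, 16 were tested, with 6 higher, 4 lower and 6 not passing (median log2 fold change 0.09), beside 33.8% higher and 33.3% lower over all tested genes. The count of lower genes was 2 in DESeq2, and also 2 when either c-FOS library was left out. Otud7b, which encodes a deubiquitinase that acts on TRAF3, had 247.9 and 240.7 CPM in the c-FOS libraries and 122.5 and 127.6 CPM in the control libraries (log2 fold change 0.97 ± 0.04, SE; edgeR adjusted p = 5.71e-11). Among genes for partners of A20, Rnf11 and Tnip1 rose by log2 fold changes of 0.57 and 0.54. Itch, of the same list and picked after its value was seen, was 0.20 higher (edgeR adjusted p = 0.0037). Its values under the alternatives are not given here. Tnip2 and Tax1bp1, partners chosen after their values were seen, had log2 fold changes of 0.09 and 0.02 and did not pass (edgeR adjusted p = 0.394 and 0.638). Both had negative values with library totals, -0.05 for Tnip2 and -0.12 for Tax1bp1, the second passing as lower (edgeR adjusted p = 0.00939), within ranges of 0.166 to 0.875 for Tnip2 and 0.00939 to 0.901 for Tax1bp1 over the alternatives run. Pdlim2, which encodes a nuclear ubiquitin ligase for p65, fell by 0.97 on the log2 scale (1.15 and 1.13 CPM with c-FOS, 2.22 and 2.27 CPM in control; edgeR adjusted p = 0.00089). Nfkbid, which encodes the atypical IkB-NS, fell by 0.73 on the log2 scale (edgeR adjusted p = 0.0161). Its call was lost in DESeq2 (-0.73, adjusted p = 0.174), without c-FOS replicate 1 (-0.65, edgeR adjusted p = 0.12) and without c-FOS replicate 2 (-0.83, edgeR adjusted p = 0.0642), within a range of 0.00555 to 0.174 over the alternatives run.

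Many listed NF-kB targets were at or near 0, and those that passed the test lay in both directions. Of 32 listed targets, 16 were tested, with 9 higher, 3 lower and 4 not passing, where 33.8% of all tested genes were higher and 33.3% lower. The median log2 fold change was 0.42, against -0.01 over all tested genes. The cytokine genes Il1a, Il1b and Il6 were at 2.5 counts or fewer in every library, and Tnf had 9 and 5 counts with c-FOS and 0.5 and 2 in control. Ccl2, the monocyte chemokine gene, had 5.97 and 6.33 CPM in the c-FOS libraries and 0.0673 and 0.128 CPM in the control libraries (log2 fold change 5.91 ± 0.28, SE; edgeR adjusted p = 2.55e-10). Cxcl10, a chemokine gene also driven by interferon, had 0.108 and 0.129 CPM with c-FOS and 3.36 and 2.30 CPM in control and fell by 4.52 on the log2 scale (edgeR adjusted p = 1.28e-07). Ptgs2, which encodes cyclooxygenase and is also known as an AP-1 target, had 315.0 and 304.1 CPM with c-FOS and 37.5 and 41.3 CPM in control (log2 fold change 2.97, edgeR adjusted p = 6.93e-15). Cflar, an inhibitor of death receptor signalling, rose by a log2 fold change of 1.07. Cxcl1 was 0.58 higher on the log2 scale (edgeR adjusted p = 0.0382), but its call was lost under 6 of 11 alternatives, where the adjusted p reached 0.248 in DESeq2.

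**Figure D5:**
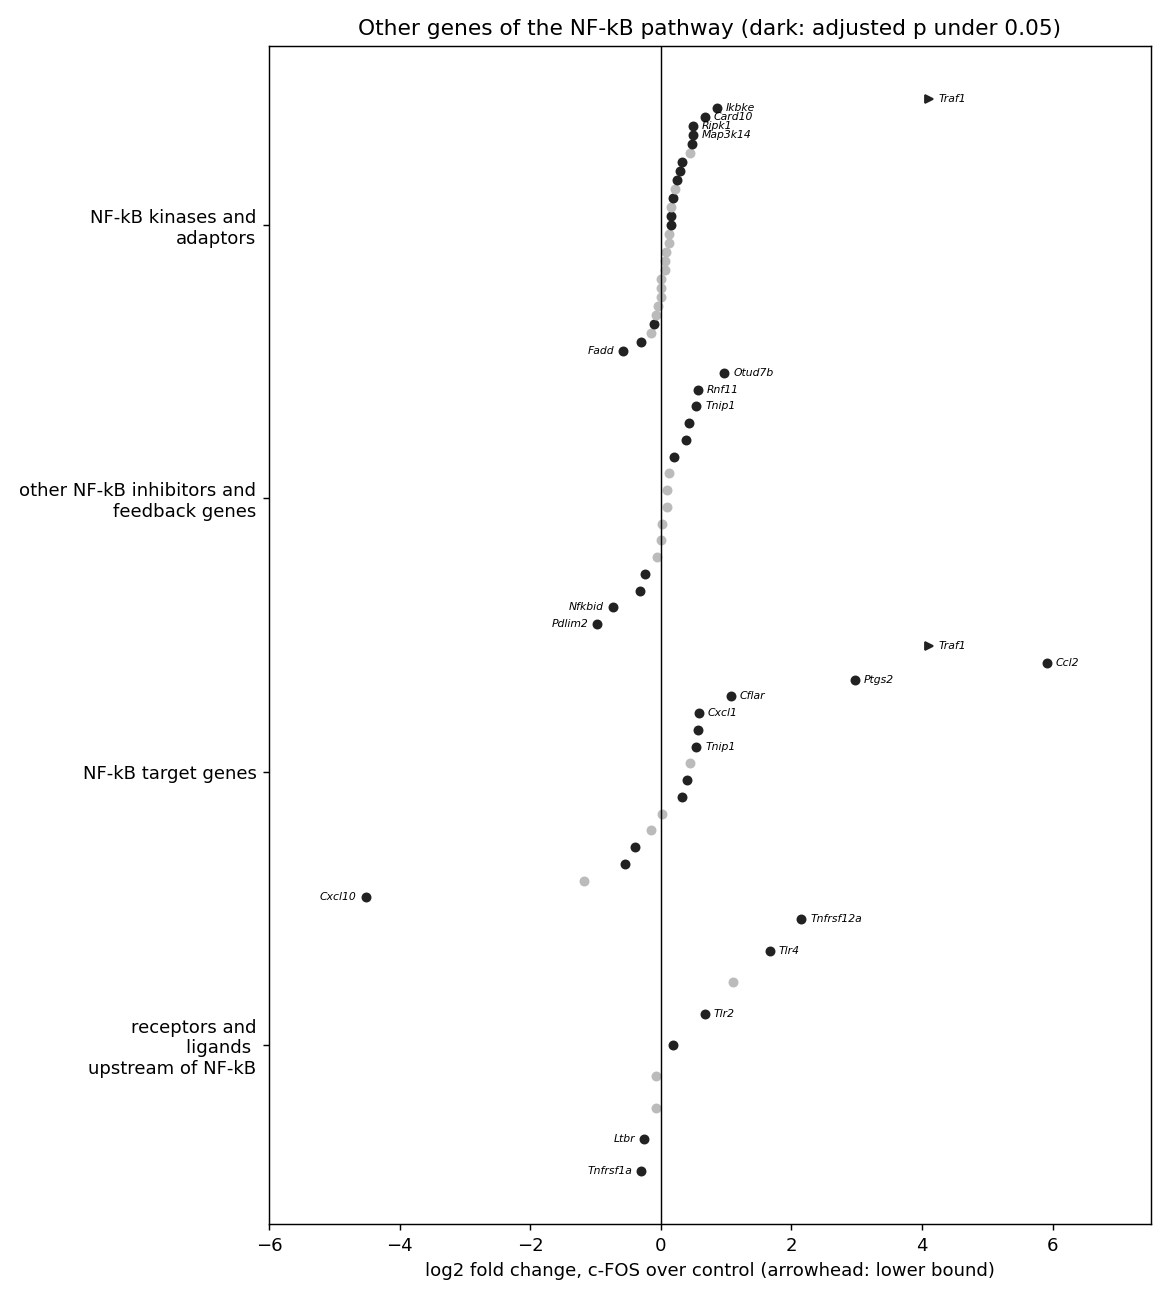
Log2 fold change (c-FOS over control, x axis) of every tested gene of the 4 lists of other NF-kB pathway genes, from edgeR's quasi-likelihood fit; dark points passed an adjusted p of 0.05, and the arrowhead for Traf1 marks its lower bound of 4.11. Ccl2 and Cxcl10 stand at opposite ends of the target list, and most kinases and adaptors lie close to 0.

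Of 18 receptors and ligands upstream of NF-kB, 9 were tested, with 4 higher, 2 lower and 3 not passing (median log2 fold change 0.18), near the 67.1% of all tested genes that passed. Tnfrsf12a, which encodes the TWEAK receptor, had 511.5 and 507.0 CPM in the c-FOS libraries and 105.9 and 123.3 CPM in the control libraries (log2 fold change 2.15, edgeR adjusted p = 4.96e-13). Tlr4, a Toll-like receptor gene, had 103.9 and 105.5 CPM with c-FOS and 32.1 and 33.6 CPM in control (1.67, edgeR adjusted p = 1.08e-12), and Tlr2 rose by a log2 fold change of 0.67. Tnfrsf1a, the TNF receptor gene, and Ltbr, the lymphotoxin receptor gene, fell by 0.30 and 0.25 on the log2 scale. Tnfsf12, which encodes the ligand of the TWEAK receptor, was at 0.5 counts or fewer in every library.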

How the data were processed

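RNA was sequenced from 2 c-FOS and 2 control libraries, grouped by their titles. Per the series design text in the labels, TopHat was the aligner and HOMER followed it. The build mm9 and DESeq2 are named per the submitters' processing notes. The authors deposited unnormalized expected counts per gene symbol, in steps of 0.5, of which 48% of the values above 0 are not whole. Such values were rounded to whole numbers. A symbol on more than 1 row kept the row with the highest total (2 symbols, no member).

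Testing used edgeR 4.0.16 in R 4.3.3, with TMM factors, filterByExpr (minimum count 10) and the two-sided quasi-likelihood test between the groups, with Benjamini-Hochberg adjustment over 12791 genes at 0.05. CPM uses TMM-scaled totals, and CPM per kilobase divides by the authors' gene model length. SE is derived from the F statistic, and 95% intervals use its t distribution. Alternatives were RLE, library-total and upper-quartile scaling, other filters, DESeq2 1.42.0, rounding down, each library left out and a replicate block. The code was tested on simulated data. The list symbols Fam105b and Emr1 were matched to Otulin and Adgre1 by RefSeq synonyms.

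The members and lists were chosen with earlier results of these data known. Text names every member and, per list, up to 5 called genes with the largest change among those averaging at least 1 CPM. Libraries of 1 group were not repeat deposits of each other, since their counts differed beyond sampling noise (chi-square per degree of freedom 1.93 for c-FOS and 4.82 for control).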

Additional observations from a re-analysis of the deposited data

How the results depend on the processing

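No member changed sign under the 12 alternatives run, and Nfkb1, Nfkb2, Rela, Relb, Rel and Tnfaip3 kept their call under each. With library totals the median log2 fold change of all tested genes was -0.14, against -0.01, 3217 genes were higher and 5879 lower (35.4% of the called genes higher, against 50.3%), 4 members were lower in place of 2, and 7 kinases and adaptors were lower in place of 3. The count of other inhibitors called lower was 2 in DESeq2 and lay between 2 and 5 with 1 library left out, where the lone library of a group is assumed to vary like the other group. The log2 ratio of the summed subunits was 0.18, and 0.05 with library totals. That of the summed inhibitors was -0.03, but 0.04 in CPM without length and -0.17 with library totals. That of subunits over inhibitors was 0.22, and 0.11 without length. Over 37 genes (the members, Fos, the 20 pathway genes named by rule, and Chuk, Ikbkg, Ikbkb, Traf1, Tnip2 and Tax1bp1), 423 of 441 values kept direction and call and 15 changed the call. The 3 that changed sign were Tnip2 (-0.05) and Tax1bp1 (-0.12) with library totals and Tax1bp1 with upper-quartile factors (-0.04), all of genes not called in the reported fit. Same-numbered libraries did not deviate together (correlation -0.07 over genes) and share only a number. With a replicate block 8464 genes were called, against 8589, and no member's call changed. The cause of these differences between settings was not tested. Genes with few counts, such as Nfkbie, have wide intervals at this depth.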
